A study of Prunus dulcis and Prunus persica and Prunus persica x Prunus dulcis with 15 samples.

Results

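The comparison described here is that of leaf RNA of a peach x almond F1 hybrid with leaf RNA of its almond parent. It rests on 6 of the 15 samples of the series, chosen by their labels: 3 RNA-seq libraries of the hybrid and 3 of almond. The hybrid is a single interspecific individual (MB 1.37, Prunus persica x Prunus dulcis), the almond is Prunus dulcis cv Texas and the peach used for orientation is Prunus persica cv Early Gold, with 3 RNA-seq libraries. All plants grew in the field with normal watering, and fully expanded leaves were taken at the end of September. Each genotype is thus 1 cultivar or 1 cross, and its libraries are described as biological replicates without saying whether they come from separate trees. The p-values of the fit measure the spread between libraries within a genotype, pooled over the hybrid, almond and peach libraries. They do not reach beyond these cultivars and this cross. The members are the gene models of peach, whose ids begin with Prupe: 22274 of the 22334 features of the count table, the others being TE families. Of these, 19036 passed the filter on low counts and were tested, and 3238 did not.

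An F1 hybrid receives a copy of each chromosome from either parent, and both copies are transcribed in the same nucleus under the same regulatory proteins. Where a difference between the parents lies in the gene copy itself, the hybrid is commonly found between them, because each copy keeps its own activity. A gene that is silent or missing in a parent can still be transcribed in the hybrid from the copy of the other parent. Peach and almond are closely related, mainly syntenic diploid species with chromosomes numbered 1 to 8, and the digit after Prupe in a gene id gives the peach chromosome. The digits after the G number the genes along it, so that the id also gives the order of the genes. The files pair the ids with no gene names, and none of them matched the almond gene table used here, so that a role is given only for the genes annotated by the study, and the leaf origin could not be checked against marker genes.

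The hybrid libraries held 16070224, 15042501 and 11726323 read pairs and the almond libraries 7485763, 17725455 and 8504083. Each read pair counts as 2 in the deposited table. Levels are given below as CPM, counts scaled to a common library total with TMM factors, and compare the same gene between genotypes, not genes with each other. Pearson correlations of the log2 CPM of genes between libraries were 0.964 to 0.975 within the hybrid, 0.945 to 0.951 within almond and 0.885 to 0.897 between the hybrid and almond. The correlations are across genes, which are not independent replicates. The coefficient of biological variation common to all features was 0.253 in the hybrid and 0.329 in almond. Genes with more than 6 counts, or 3 read pairs, numbered 18671, 18477 and 18189 in the hybrid libraries and 17504, 18136 and 17510 in the almond libraries. The deepest library was one of almond, and it still held fewer such genes than each hybrid library. With all libraries thinned to the same total, the numbers were 17593, 17568 and 17568 in the hybrid and 17504, 17378 and 17341 in almond. The genotypes did not overlap before or after thinning, and an exact permutation test (two-sided) gave p = 0.1 for both, which is as low as 3 libraries against 3 can reach.

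Most genes were transcribed at a similar level in hybrid and almond leaves. The change was smaller than 2-fold for 15481 of the 19036 genes tested, or 81.3%. The median log2 fold change over all genes tested was -0.0022, a value that the scaling of the libraries centres near 0. Genes were tested with the quasi-likelihood test of edgeR and Benjamini-Hochberg adjustment, and a gene was called at an adjusted p under 0.05 with a change of at least 2-fold in either direction. By this rule 1065 genes were higher in the hybrid than in almond, or 5.59% of those tested, and 373 genes were lower, or 1.96%. Both directions together made up 1438 genes, or 7.55%, and 74.1% of the called genes were higher. At an unadjusted p under 0.05 there were 4686 genes. In a bulk leaf sample a change in the number of cells of a type and a change in RNA per cell cannot be told apart.

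Of the 17598 genes that were not called, 47.6% had a level above that of almond in the fit. Genes at least 2-fold above almond in the fit, called or not, numbered 1995 and genes at least 2-fold below it 1560. The levels of the 3 hybrid libraries all lay above those of the 3 almond libraries for 3343 genes, or 17.6%, and all below them for 2777 genes, or 14.6%. The libraries of both genotypes did not overlap for 1064 of the 1065 genes called higher and for 369 of the 373 genes called lower. Over all genes tested this held for 6120, or 32.1%. The rule chose genes by the distance between these same libraries, so that the lack of overlap is in part fixed in advance.

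The filter on low counts bears on these numbers, since a gene could pass it through the hybrid or peach libraries alone. A CPM of at least 0.329 in all 3 libraries of both genotypes was reached by 16094 genes. Among these, 579 genes were called higher, or 3.60%, and 297 were called lower, or 1.85%. A further 425 of the genes called higher reached that level in all hybrid libraries but not in all almond libraries, and 72 of the genes called lower reached it in almond but not in the hybrid. Of all genes tested, 1142 were of the first kind and 522 of the second, so that these 2 pools were unequal. In a fit without the peach libraries, 946 genes were higher and 474 lower, and 66.6% of the calls were higher. Leaving out the hybrid replicates 1, 2 and 3 in turn gave 245, 225 and 238 genes lower, which is over 1.5 times fewer than with all libraries, and 943, 906 and 905 genes higher.

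The genes called higher were weakly transcribed in almond, and the genes called lower were not. The median level of the genes called higher was 9.35 CPM in the hybrid and 1.20 CPM in almond, and 14.4 CPM in peach. The median level of the genes called lower was 4.75 CPM in the hybrid and 15.6 CPM in almond, and 3.15 CPM in peach. These levels describe the genes the rule chose and were not tested. The genes called higher took up 4.47%, 4.43% and 4.396% of the gene CPM of the hybrid libraries, against 1.27%, 1.24% and 1.22% in the almond libraries. The genes called lower took up 0.540%, 0.609% and 0.638% in the hybrid libraries, against 1.68%, 1.56% and 1.69% in the almond libraries. The called genes thus took up a small part of the gene CPM in either genotype, which is a share of reads and not of transcripts.

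**Figure D1:**
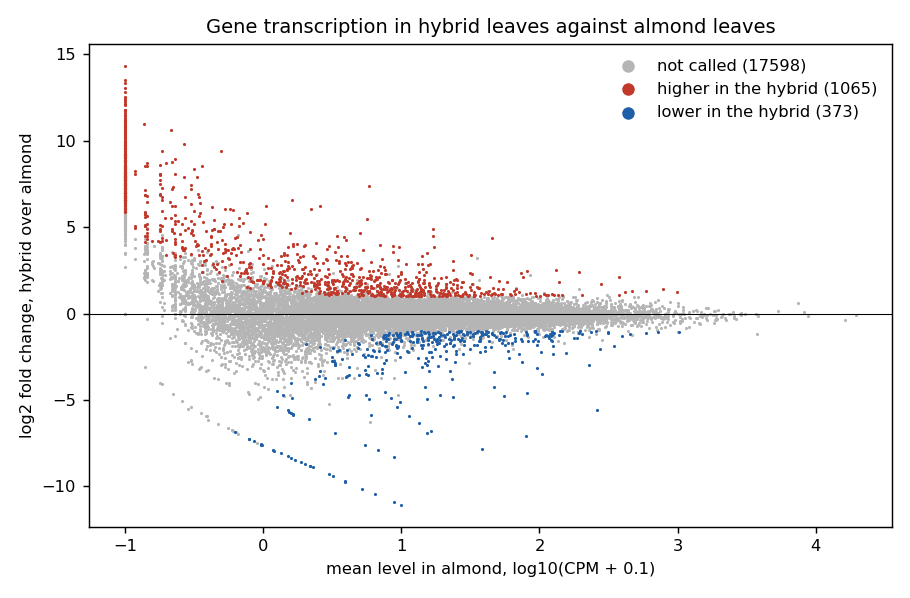
Each point is 1 of the 19036 genes tested, with its mean level in almond as log10(CPM + 0.1) on the horizontal axis and the log2 fold change of the hybrid over almond on the vertical axis. The 1065 genes called higher (red) crowd at the low end of the almond level, while the 373 genes called lower (blue) lie mostly above it, and the fitted fold changes of genes at 0 in a genotype depend on the prior count of the fit.

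The share of genes called in either direction varied with the level in almond. The genes tested were divided into 5 groups of equal size by their mean level in almond. In the lowest group, below 1.92 CPM, 602 of 3808 genes were called higher, or 15.8%, and 25 were called lower, or 0.657%. In the second group, up to 8.84 CPM, 6.36% were called higher and 2.44% lower. In the middle group, up to 23.0 CPM, the shares came close to each other, at 3.39% higher and 2.89% lower. In the fourth group, up to 57.7 CPM, 1.52% were called higher and 2.05% lower. In the highest group 34 of 3807 genes were called higher, or 0.893%, and 67 were called lower, or 1.76%. By this level, higher genes outnumbered lower genes in the 3 lowest groups and were outnumbered by them in the 2 highest. With the level taken from the mean of hybrid and almond, higher genes outnumbered lower ones in every group, the highest included, where 87 genes, or 2.29%, were called higher and 48, or 1.26%, lower. The lowest group held 56.5% of all genes called higher and 6.70% of all genes called lower.

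**Figure D2:**
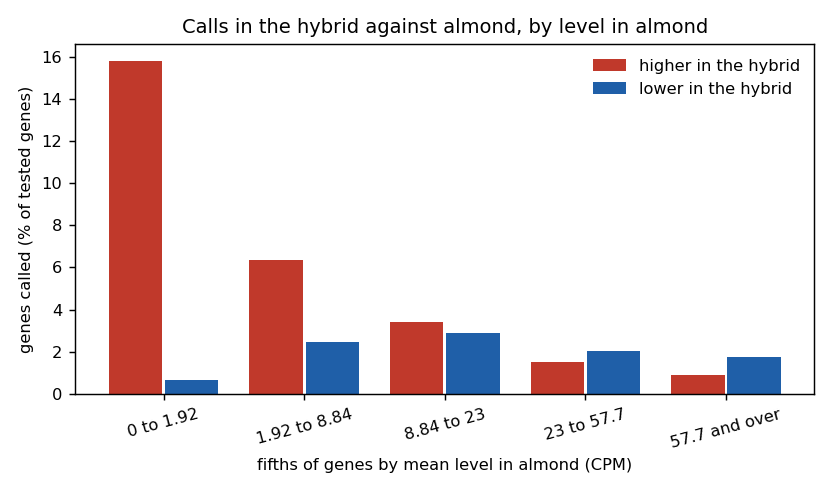
The bars give the percent of tested genes called higher (red) and lower (blue) in the hybrid, in 5 groups of genes of equal size by their mean level in almond in CPM. Calls of higher genes fall off from 15.8% in the lowest group to 0.893% in the highest, and calls of lower genes peak at 2.89% in the middle group.

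The level in almond is also the denominator of the fold change. The level was therefore also taken from 1 almond library and the calls from the fit with the other almond libraries. In the lowest group the genes called higher were then 13.9%, 13.4% and 13.7%, for the levels of almond replicates 1, 2 and 3. In the highest group they were 1.23%, 1.29% and 1.05%, against 1.37% called lower with each of the 3 libraries. In the fourth group, 79 genes were called higher and 58 lower with the level of almond replicate 1. With replicate 2 there were 58 higher and 63 lower, and with replicate 3 there were 48 higher and 66 lower. The lowest group thus still held the larger share of higher genes with levels that the fold change did not use. Taking the level from 1 library does not remove the effect of the filter, however. A gene absent in almond had to pass the filter through the other libraries, and could hardly be called lower. The excess of higher genes in the lowest group is thus in part fixed in advance. With the level taken from peach, the picture was another one. Peach is the other parent of the hybrid, and its libraries entered the filter and the estimate of spread, so that this level is not neutral. Genes called higher made up 3.39% of the lowest group by peach level and 5.15% of the highest, and genes called lower made up 3.99% of the lowest and 0.420% of the highest.

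The spread of the changes narrowed with the level in almond. The median size of the log2 fold change, in either direction, was 1.13 in the lowest group and 0.486, 0.297, 0.212 and 0.194 in the following groups. The share of genes within 2-fold was 45.8% in the lowest group and 96.6% in the highest. The median size also fell from 1.01 to 0.194 by the mean level of hybrid and almond, and from 0.927 to 0.200 by the peach level. Genes of the lowest group have few reads, and how much of their spread is counting error was not tested. The genes with the highest CPM in almond leaves moved little. Of the 100 genes with the highest level in almond, at least 814 CPM, 96 were within 2-fold, 1 was called higher and 1 lower, with log2 fold changes from -1.16 to 1.27. Of the 20 highest, none was called by edgeR and 19 were within 2-fold. These 20 genes made up 9.56%, 10.7% and 10.4% of the gene CPM in the hybrid libraries and 9.68%, 10.8% and 12.0% in the almond libraries.

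Among the called genes, small changes made up most of the lower genes and far fewer of the higher ones. Of the genes called lower, 223 of 373, or 59.8%, changed between 2- and 4-fold, and 60 between 4- and 8-fold. Of the genes called higher, 389 of 1065, or 36.5%, changed between 2- and 4-fold, 146 between 4- and 8-fold and 143 between 8- and 32-fold. A fitted change of over 32-fold was found for 387 genes called higher and 47 genes called lower, and almost all of these were absent or nearly so in a genotype. The threshold of 2-fold cut through a dense range of sizes. With an adjusted p under 0.05, 108 genes lay just inside it, at a log2 change of 1 to 1.1 in size, and 105 genes just outside it, at 0.9 to 1.

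The size of the change varied with the level for higher genes too, and the part of counting error in this was not tested. In the lowest group by almond level, the median level of the genes called higher was 3.20 CPM in the hybrid and 0.0395 CPM in almond. In the second group it was 16.0 CPM in the hybrid and 4.35 CPM in almond, a median change of 3.23-fold. In the highest group it was 279 CPM in the hybrid and 113 CPM in almond, a median change of 2.34-fold. The genes called lower had a median change of 6.55-fold in the second group, with 0.656 CPM in the hybrid and 5.45 CPM in almond. In the highest group their median change was 2.47-fold, with 42.6 CPM in the hybrid and 118 CPM in almond. The median changes of the called genes were therefore larger in the second group than in the highest. In the highest group they were close in both directions, but the rule admits only changes of at least 2-fold, which holds both medians above that limit. Single genes of the highest group changed far more, 1 of them being 133-fold lower in the hybrid.

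A large part of the higher genes was not detected in almond at all. Almond reads were counted on peach sequences, and the effect of this on detection in almond and on the direction of the calls was not tested. A gene counted as not detected in a genotype if no library of that genotype had more than 6 counts for it, a floor of 3 read pairs that covers counting error only. This held in almond for 371 of the 1065 genes called higher, of which 294 had no read in any almond library. In the hybrid it held for 44 of the 373 genes called lower, of which 26 had no read in any hybrid library. Of all 19036 genes tested, called or not, 759 were not detected in almond and 231 were not detected in the hybrid. The 371 and the 44 genes thus come from pools of unequal size. The median level of the 371 genes was 1.57, 1.51 and 1.503 CPM in the hybrid libraries, against 0 CPM in each almond library. Most of them were thus weak transcripts in the hybrid too, although their levels reached 124 CPM. With the mean floor of the almond libraries at 0.301 CPM, the genes were at least 4.90-fold higher at the median, and 113 of them at least 10-fold. For 3 of them the hybrid lay under that floor and no bound is given. The most abundant of them was at least 414-fold higher. The 44 genes were at least 7.42-fold lower in the hybrid at the median, with bounds from 2.46 to 77.3.

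With such genes set to their bounds, the median change was 3.90-fold for the genes called higher and 3.24-fold for those called lower. Without them, 694 genes detected in both genotypes were called higher, or 3.83% of 18097, and 329 were called lower, or 1.82%. The median levels of these 694 genes were 18.2 CPM in the hybrid and 4.29 CPM in almond. Those of the 329 genes were 5.71 CPM in the hybrid and 18.6 CPM in almond. In peach, all 371 genes not detected in almond were detected, at medians of 3.38, 2.65 and 3.33 CPM, and the hybrid level was 0.522 times the peach level at the median (quartiles 0.373 and 0.754). Of the 44 genes not detected in the hybrid, 21 were detected in peach. The detection in peach is in part fixed by the filter, which a gene absent in almond had to pass through the other libraries.

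All 8 chromosomes held more genes called higher than lower. The number of genes tested was 4245 for chromosome 1 and between 1785 and 2603 for the others. Genes called higher made up 7.16% of the tested genes of chromosome 4, 6.81% of chromosome 2 and 6.05% of chromosome 8, beside 5.59% over all genes. The lowest share was 4.62%, on chromosome 7. Genes called lower ranged between 1.68% on chromosome 5 and 2.63% on chromosome 2, beside 1.96% over all genes. Of the called genes of a chromosome, between 70.4% on chromosome 6 and 79.0% on chromosome 4 were higher. The median log2 fold change was between -0.0127 on chromosome 4 and 0.0093 on chromosome 5. The scaling of the libraries centres these medians near 0. These shares are descriptions, since the genes of a chromosome are not replicates.

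The share of the gene counts that came from each chromosome was compared over the libraries. Chromosome 4 gave 11.9%, 11.6% and 11.4% of the gene counts of the hybrid libraries, against 11.1%, 10.9% and 11.4% in the almond libraries, and the lowest hybrid library overlapped the highest almond one. Chromosome 3 gave 12.0%, 12.3% and 12.3% in the hybrid libraries, against 12.7%, 12.6% and 13.0% in almond, without overlap. Chromosome 1 gave 21.6%, 21.7% and 21.8% in the hybrid libraries, against 21.4%, 21.5% and 20.99% in almond, also without overlap. The differences, hybrid minus almond, were 0.484 percentage points for chromosome 4, -0.558 for chromosome 3 and 0.413 for chromosome 1, and for the others between -0.262 and 0.0702. The two-sided exact permutation test gave p = 0.1 for chromosomes 1 and 3, the smallest it allows, and p = 0.2 or more for the others. Adjusted over the 8 chromosomes, the smallest p was 0.4. Without the 20 most abundant genes the differences were 0.186 for chromosome 4, -0.206 for chromosome 3, 0.581 for chromosome 1 and -0.43 for chromosome 6, so that the order of the chromosomes depends on these genes, and without almond replicate 3 that of chromosome 1 was 0.256, with p = 0.2 in the exact test. The shares rest on all genes, while a mean of log2(CPM + 1), which gives each gene the same weight, was taken over the tested genes only. By this mean all 8 chromosomes were higher in the hybrid, by 0.0187 on chromosome 6 to 0.102 on chromosome 4. The exact test gave p = 0.1 for chromosomes 1, 2, 3, 4, 5 and 8. Of the tested genes, 880 passed the filter only with the peach libraries, so that this direction can depend on the filter, which was not tested.

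**Figure D3:**
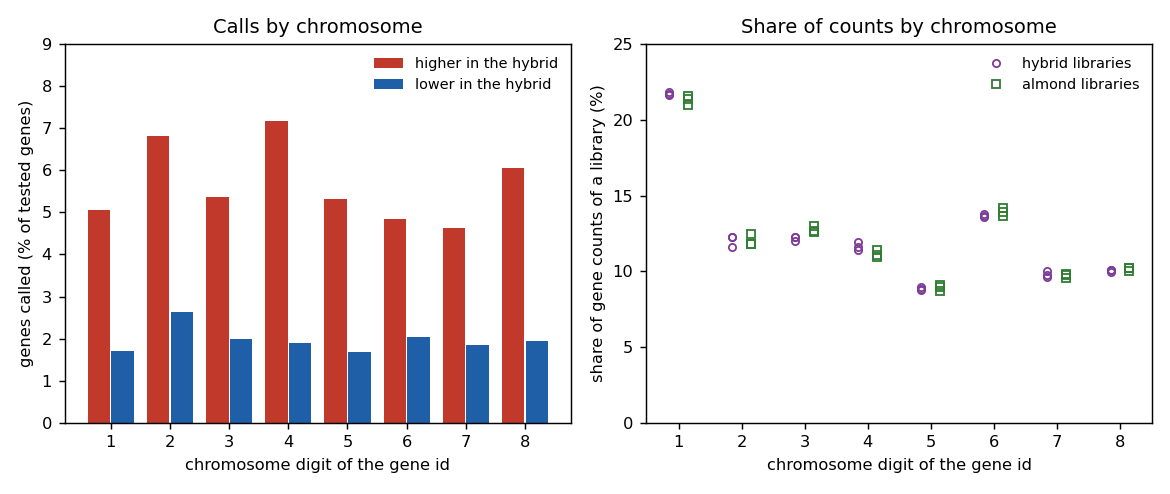
The left panel gives the percent of tested genes called higher (red) and lower (blue) in the hybrid for each chromosome, and the right panel the share of a library's gene counts from each chromosome, with a circle for each hybrid library and a square for each almond library. Genes called higher range between 4.62% on chromosome 7 and 7.16% on chromosome 4, and the mean shares of counts differ, hybrid minus almond, by 0.484 percentage points on chromosome 4 and by -0.558 on chromosome 3, values that shrink to 0.186 and -0.206 without the 20 most abundant genes.

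Called genes of the same direction lay next to each other more often than the shares over all genes. Of the genes that followed a gene called higher in the order of ids, 16.4% were called higher themselves, beside 5.59% of all genes tested. Of those that followed a gene called lower, 6.47% were called lower, beside 1.96%. A gene called lower followed 2.83% of the genes called higher. In all, 174 neighbouring pairs were both called higher, 24 were both called lower and 59 were of opposite direction, of 18991 pairs. Neighbouring genes can be similar copies of each other that share reads, so that such pairs are not independent, and the overlap of their sequences was not tested.

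The chromosomes were also divided into 947 windows of 20 neighbouring tested genes. The median window held 1 called gene, 270 windows held none and 51 held at least 5. The window with the most calls lay on chromosome 8, between the gene numbers 108800 and 111300, with 9 genes called higher and 1 called lower. Its 9 higher genes summed to 157, 199.97 and 178 CPM in the hybrid libraries, against 32.7, 37.9 and 22.02 CPM in the almond libraries and 224, 181 and 228 CPM in the peach libraries. The second window lay on the same chromosome, between the gene numbers 14000 and 16800, where 9 genes were called higher and none lower by edgeR. These 9 genes summed to 107, 133 and 123 CPM in the hybrid libraries, while the almond libraries held 0, 0.0552 and 0.947 CPM, and 8 of them were not detected in almond. Their sum in the peach libraries was 240, 234 and 256 CPM. All 20 genes of the window together summed to 499.9, 508 and 479.7 CPM in the hybrid libraries, against 378, 320 and 325 CPM in the almond libraries, so that other genes of the window were transcribed in almond.

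**Figure D4:**
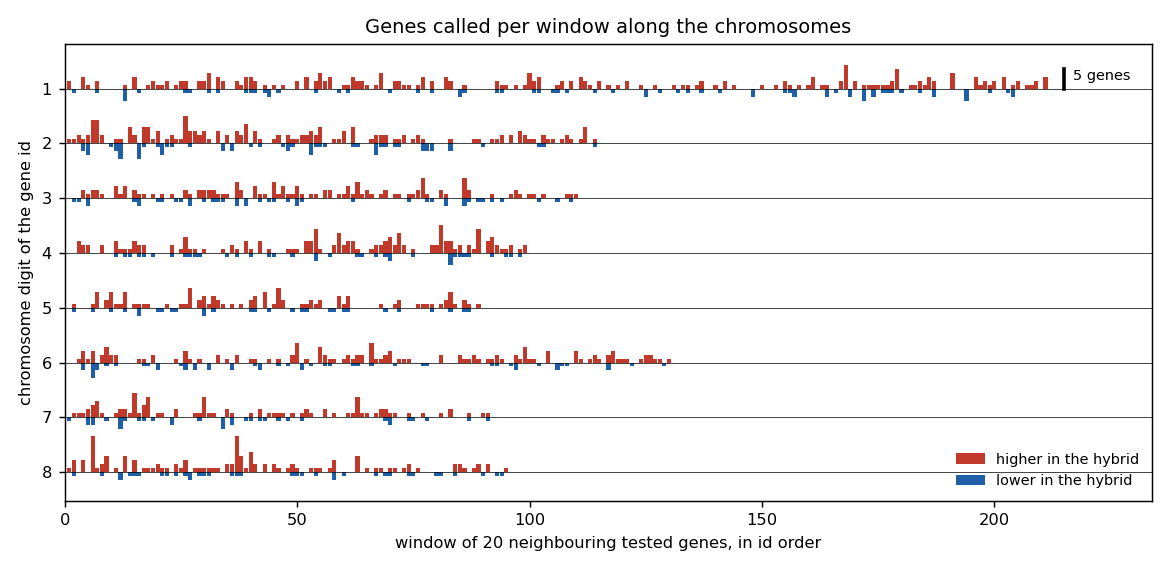
Each bar is a window of 20 neighbouring tested genes, placed in the order of ids along chromosomes 1 to 8, with the number of genes called higher drawn upwards (red) and the number called lower drawn downwards (blue). The tallest bars stand on chromosome 8, with 9 genes called higher in each of 2 windows, and 270 of the 947 windows are empty.

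Besides these, a window on chromosome 4, between the gene numbers 144400 and 147400, held 6 genes called higher and 2 called lower. Its higher genes summed to 3701, 1780 and 1798 CPM in the hybrid libraries, against 648, 532 and 380 CPM in the almond libraries. The hybrid libraries were all above the almond libraries, but hybrid replicate 1 lay far above the other hybrid libraries. A window on chromosome 2, between the gene numbers 77000 and 79500, held 7 genes called higher and none lower by edgeR. They summed to 236, 381 and 345 CPM in the hybrid libraries, against 30.4, 30.3 and 17.4 CPM in the almond libraries. It was chosen among 4 windows with 7 calls each, after its values were seen. The others, on chromosomes 3, 4 and 6, held 5 higher and 2 lower, 7 higher and 0 lower, and 3 higher and 4 lower genes by edgeR. All the windows described were chosen for their number of calls, and no test was made on them.

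Single genes show how the changes looked at the level of the library. Among genes detected in both genotypes, the largest change to higher was that of Prupe.4G226400.1 on chromosome 4, with 305, 188 and 204 CPM in the hybrid libraries, against 0, 0.221 and 0.118 CPM in the almond libraries. In peach it had 127, 219 and 169 CPM. The log2 fold change was 10.6 ± 0.46 (standard error) with an edgeR adjusted p of 1.29e-07, and its size rests on the few reads of almond. Without almond replicate 2 it was 11.8. The largest change to lower was that of Prupe.5G116600.1 on chromosome 5, with 0, 0.459 and 0 CPM in the hybrid libraries, against 27.5, 32.2 and 55.4 CPM in the almond libraries. Peach had 0, 0.0663 and 0.599 CPM. Its log2 fold change was -7.86 ± 0.98, with an edgeR adjusted p of 0.000322. The hybrid counts were 0, 14 and 0, so that its detection in the hybrid and the size of its change rest on hybrid replicate 2. Without that library the log2 fold change was -13.0, and without hybrid replicate 1 it was -7.20. Both genes were thus near absence in a genotype and at a clear level in the other.

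The most abundant of the genes called higher was Prupe.1G475400.1, on chromosome 1, with 1350, 3008 and 2842 CPM in the hybrid libraries, against 967, 781 and 1240 CPM in the almond libraries. Peach had 6218, 6302 and 8329 CPM. The lowest hybrid library lay close to the highest almond library, and the log2 fold change was 1.27 ± 0.30 with an edgeR adjusted p of 0.0176. Without almond replicate 1 or 2, or hybrid replicate 2 or 3, its adjusted p was 0.0573, 0.0731, 0.0680 and 0.0618. The most abundant of the genes called lower was Prupe.6G029500.1 on chromosome 6, with 476, 528 and 502 CPM in the hybrid libraries, against 868, 1048 and 1177 CPM in the almond libraries. Peach had 729, 1117 and 730 CPM. Its log2 fold change was -1.04 ± 0.20, with an edgeR adjusted p of 0.00547, just past the limit of 2-fold. Without almond replicate 2 or 3, or hybrid replicate 1, its adjusted p from edgeR was 0.0279, 0.0204 and 0.0276, but its log2 fold change was -0.99, -0.93 and -0.96, under the limit.

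**Figure D5:**
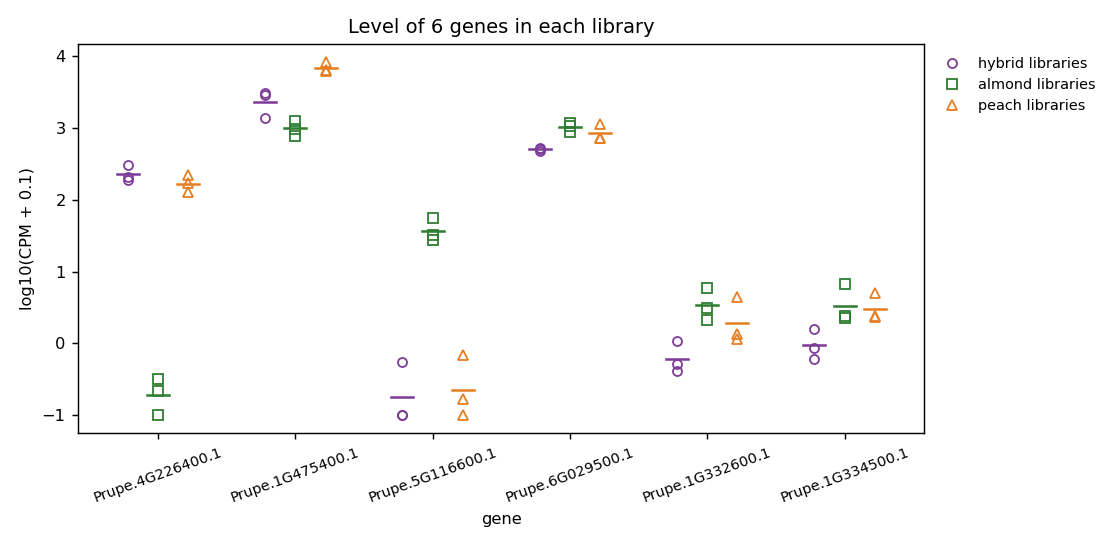
The points give the level of 6 genes in each library as log10(CPM + 0.1), with hybrid libraries as circles, almond libraries as squares and peach libraries as triangles, and a dash for the mean of 3 libraries on that scale. Hybrid and almond libraries are far apart for the first and the third gene, and closer for the others, where the lowest hybrid library of Prupe.1G475400.1 has 1350 CPM and the highest almond library 1240 CPM.

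The study annotated 9 genes with possible roles in DNA methylation, in a list it chose on these same samples. RNA-dependent RNA polymerases copy RNA into double strands, which are the source of small RNAs in antiviral defence and in silencing. DNA methyltransferases place methyl groups on cytosines, and DNA demethylases remove them. Of the 9 genes, 8 were tested, none was called higher by edgeR, beside 5.59% of all genes tested, and 1 was called lower, beside 1.96%. Over the 8 genes the median log2 fold change was -0.29, beside -0.0022 over all genes tested. The study took the 2 RNA-dependent RNA polymerases from among the genes that it found lower in the hybrid. The call and the median of the list are thus in part fixed by that choice, and nothing is concluded from them.

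The gene called lower was Prupe.1G332600.1, an RNA-dependent RNA polymerase similar to RDR1 of Arabidopsis. It had 0.314, 0.983 and 0.417 CPM in the hybrid libraries, against 3.06, 5.74 and 2.01 CPM in the almond libraries, without overlap. Its log2 fold change was -2.65 ± 0.73, with an edgeR adjusted p of 0.0404. Without almond replicate 1 or 2, or hybrid replicate 1 or 3, its adjusted p was 0.0682, 0.147, 0.131 and 0.140. The call was also lost with libraries thinned to the lowest total, at an edgeR adjusted p of 0.0596, and with limma on rlog values, where the log2 fold change was -0.80. Prupe.1G334500.1, the other such polymerase and close to the first in gene number, had 0.754, 1.51 and 0.501 CPM in the hybrid libraries, against 2.29, 6.68 and 2.13 CPM in the almond libraries. The libraries did not overlap either, and its log2 fold change was -2.01 ± 0.62, with an edgeR adjusted p of 0.0642. With DESeq2 its adjusted p was 0.0139. Both genes are weakly transcribed in these leaves, and reads shared between them could move their counts.

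None of the DNA methyltransferases was called by edgeR. Prupe.8G038800.1 had 19.7, 25.4 and 22.8 CPM in the hybrid libraries, against 23.0, 39.9 and 36.5 CPM in the almond libraries, and the genotypes overlapped. Its log2 fold change was -0.55 ± 0.21 with an edgeR adjusted p of 0.135. Prupe.7G183100.1 had 3.46, 2.56 and 4.42 CPM in the hybrid libraries, against 8.40, 3.97 and 6.87 CPM in the almond libraries. Here the log2 fold change was -0.88 ± 0.42 with an edgeR adjusted p of 0.221. Prupe.6G322700.1 had 65.1, 77.8 and 79.1 CPM in the hybrid libraries, against 72.2, 66.6 and 79.0 CPM in the almond libraries, and its log2 fold change of 0.029 ± 0.17 was far within its error. Prupe.6G011600.1 did not pass the filter, with 0, 0 and 6 counts in the hybrid libraries, against 2, 0 and 0 counts in the almond libraries, so that no difference was detectable at this depth.

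The DNA demethylases were close to each other in both genotypes. Prupe.7G005000.1, the most counted of the list, had 202, 194 and 244 CPM in the hybrid libraries, against 224, 194 and 182 CPM in the almond libraries, and a log2 fold change of 0.090 ± 0.18. Prupe.7G118000.1 had 115, 92.0 and 99.003 CPM in the hybrid libraries, against 132, 99.6 and 80.5 CPM in the almond libraries, and a log2 fold change of -0.029 ± 0.18. Prupe.6G119100.1 had 4.15, 3.08 and 3.59 CPM in the hybrid libraries, against 4.84, 2.87 and 1.42 CPM in the almond libraries, and a log2 fold change of 0.25 ± 0.41. The genotypes overlapped for each of the 3 genes, and their adjusted p from edgeR lay between 0.776 and 0.950.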

How the data were processed

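The authors aligned stranded paired reads of all genotypes with Bowtie2 through RSEM to peach transcript models joined with representative TE copies, kept reads on the sense strand and deposited whole counts without normalization. The versions of Bowtie2 and RSEM are not given in the sources used here. Almond reads were thus counted on peach sequences, and the effect of this on the almond counts was not tested. The paper also mapped the reads to almond gene models and reported a very high correlation between both profiles over orthologous genes. Counts on almond gene models were not used here. All deposited counts are even numbers, each read pair adding 2, and 1 line that held 2 records was split. The deposited log2 values are regularized log (rlog) values that the authors made with DESeq2, and were used only as an alternative. The deposited methylation percentages were not used here.

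All 9 RNA-seq libraries were fitted in R 4.3.3 with edgeR 4.0.16 (TMM factors, filterByExpr, quasi-likelihood test), with genotype as the factor, and the p-values of hybrid minus almond were adjusted over all genes and TE families tested. The standard error was taken from the log2 fold change and the F value. CPM are counts scaled to a common library total with the TMM factor. DESeq2 1.42.0 and limma 3.58.1 served as alternatives. Summaries and exact tests used pandas 2.3.3 and scipy 1.17.1 under Python 3.11.15. TMM factors lay between 0.943 and 1.05. No replicates of a genotype were alike within counting error (chi-squared over its degrees of freedom, 10.8 or more). The fit was tested on simulated data. The members and lists were chosen with earlier results of these data known. Gene lists by product name could not be applied, since 0 of 22274 ids matched the RefSeq table of almond, which has its own ids. For that reason the genes named are only the first by size of change and the first by level in each direction, of the longer list that was planned, and the 9 genes annotated by the study. Thinning to the lowest library total was added after the data were seen.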

Additional observations from a re-analysis of the deposited data

Results flagged for a closer look

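The count table also holds TE families, which the comparison of genes did not use. In the same fit, 8 of the 49 TE families tested were called higher in the hybrid than in almond and 7 were called lower, beside 5.59% of genes called higher and 1.96% called lower. The counts are given because some families had a level above that of almond, and nearly as many were below it. Their levels were not set against peach here, and a level above almond need not be above both parents. The paper reported no TE family above both parents, and intermediate levels in the hybrid in most cases.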

How the results depend on the processing

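Counts of genes called higher in the hybrid stayed within 1.5 times of 1065 except with limma on rlog values (551) and with edgeR's test against a log2 fold change of 1 (587). Counts of genes called lower, 373 with all libraries, were 585 with DESeq2, 209 with limma, 95 in the test against a log2 fold change of 1, 635 without a minimum fold change and 177 at an adjusted p under 0.01. Leaving out 1 library at a time gave 225 to 285 lower and 905 to 1016 higher genes. The share of calls that were higher was over 50% in each alternative. It was 68.4% with DESeq2, 86.1% in the test against a log2 fold change of 1, 66.6% with hybrid and almond libraries alone, 71.4% with halved counts, 71.6% after thinning, 68.9% without a minimum fold change, 80.5% at an adjusted p under 0.01 and 77.3 to 80.1% without 1 library. Replicate numbers are shared between the hybrid and almond. The correlations of same-numbered libraries' deviations were 0.102, -0.062 and 0.153, and those of differently numbered libraries lay between -0.195 and 0.103. With 3 libraries per genotype, these values cannot tell whether the libraries are paired. A fit with a replicate block gave 914 higher and 509 lower genes (64.2% higher).

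In the lowest group by almond level, higher genes were 7.27% with limma, 25.7% with a filter of 1 CPM, 10.2% at an adjusted p under 0.01, 8.80% with levels from the mean of hybrid and almond and 3.39% with levels from peach. Lower genes there were 1.47% with DESeq2, 0% with limma, 0.210% in the test against a log2 fold change of 1, 1.02% with hybrid and almond libraries alone, 0.0263% at an adjusted p under 0.01, 1.44% with mean levels, 3.99% with peach levels, 0.315% with levels from almond replicate 3 and 0.0788 to 0.316% without 1 library. In the highest group, higher genes were 0.473% with limma, 0.210% in the test against a log2 fold change of 1, 3.13% without a minimum fold change, 2.29% with mean levels and 5.15% with peach levels. Lower genes there were 0.341% in that test, 5.52% without a minimum fold change, 1.16% at an adjusted p under 0.01 and 0.420% with peach levels. The cause of these moves was not tested.

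By mean log2(CPM + 1) of the tested genes, the difference turned to 0.0530 for chromosome 3, 0.0608 for chromosome 5, 0.0187 for chromosome 6 and 0.0656 for chromosome 8. Without 1 library the share differed by -0.102 to 0.234 percentage points for chromosome 2, -0.177 to 0.0438 for chromosome 5 and -0.0375 to 0.147 for chromosome 7. Log2 fold changes near 0 also turned. That of Prupe.6G322700.1 was -0.000141 after thinning. That of Prupe.7G118000.1 was 0.0157 with the replicate block and -0.18 to 0.203 without 1 library, and that of Prupe.6G119100.1 was -0.0804 to 0.753 without 1 library. Almond replicates 1 and 3 were the shallowest libraries, with 7485763 and 8504083 read pairs, and a gene at 0 there is known only to lie under the floor.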

Other observations

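The 37 tested genes whose ids carry no chromosome digit, from unplaced scaffolds, included 5 called higher and 2 called lower in the hybrid, or 13.5% and 5.41%, beside 5.59% and 1.96% of all genes tested. The share of the gene counts from all genes of this kind was 0.0888%, 0.0900% and 0.0857% in the hybrid libraries, against 0.0691%, 0.0655% and 0.0474% in the almond libraries, without overlap, and the two-sided exact permutation test gave p = 0.1.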
